A study of Mus musculus with 2 samples.

Results

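The neutrophil granule and alarmin genes examined here were S100a8, S100a9, Camp, Ngp, Ltf, Lcn2, Elane, Mpo, Prtn3 and Retnlg. They were chosen by symbol from the gene list of the deposited matrices and made up 10 of 32285 genes. All 10 were found under their identifiers in the mouse GRCm38 annotation, and all 10 had unique molecular identifiers (UMIs, each a count of 1 captured transcript) in neutrophil-like cells of both libraries. The samples were orthotopic KPC tumours, pancreatic cancer cells grown in the mouse pancreas, taken 21 days after implantation and profiled by 10x Genomics single-cell 3′ RNA sequencing. The control library pooled tumours of 5 Porcnfl/fl mice, which carry floxed alleles of Porcn, an enzyme that attaches the lipid needed for Wnt secretion, and no Cre. The knockout library pooled tumours of 5 Csf1r-Cre;Porcnfl/fl littermates. Csf1r-Cre deletes in cells that have used the Csf1r promoter, and the labels describe the line as macrophage-specific. No strain, age or sex is given in the sources used here.

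Neutrophils fill their granules in sequence as they mature in the bone marrow. Promyelocytes make primary granule proteins such as elastase (Elane), myeloperoxidase (Mpo) and proteinase 3 (Prtn3), while myelocytes and metamyelocytes make secondary granule proteins such as the cathelicidin precursor (Camp), neutrophilic granule protein (Ngp), lactoferrin (Ltf) and lipocalin 2 (Lcn2). S100a8 and S100a9 encode the calcium-binding subunits of calprotectin, an alarmin that makes up much of the neutrophil cytosol, and Retnlg encodes resistin-like gamma, a secreted protein of mouse neutrophils nearing maturity. Granule transcripts largely cease before a neutrophil leaves the marrow, so transcripts of the early genes in a tissue mark young cells.

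The promoters are shown with matches to short letter patterns of the kind bound by the myeloid factors PU.1 and C/EBP. Such matches do not show which factor acts on a gene, and binding was not measured. Sequences are RefSeq promoter bases of GRCm38.p6, 5′ to 3′ on the gene's strand. Capitals mark matches on either strand to GAGGAAG (PU.1-type) or TTNNGNAA (C/EBP-type). Bases from the first annotated exon reached inside the window on were left out. The Prtn3 window lies inside the annotated gene, which spans chr10:79874476-79883174. The printed windows were chr10:79886062-79886246 for Elane, chr11:87793534-87793580 for Mpo and chr10:79879417-79879613 for Prtn3, all on the plus strand. The others were chr9:110419558-110419746 for Ngp and chr9:111019042-111019270 for Ltf, on the plus strand, and chr3:90668821-90668977 for S100a8 (plus) and chr3:90695722-90695971 for S100a9 (minus).
Elane: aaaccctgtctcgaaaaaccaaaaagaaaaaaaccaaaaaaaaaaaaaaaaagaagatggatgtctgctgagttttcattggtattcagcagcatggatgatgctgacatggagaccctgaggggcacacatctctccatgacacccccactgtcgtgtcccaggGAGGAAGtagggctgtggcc
Mpo: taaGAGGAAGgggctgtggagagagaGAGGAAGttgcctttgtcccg
Prtn3: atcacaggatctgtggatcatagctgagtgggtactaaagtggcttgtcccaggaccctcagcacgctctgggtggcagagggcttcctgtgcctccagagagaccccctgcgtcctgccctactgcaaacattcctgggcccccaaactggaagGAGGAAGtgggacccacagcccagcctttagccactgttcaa
Ngp: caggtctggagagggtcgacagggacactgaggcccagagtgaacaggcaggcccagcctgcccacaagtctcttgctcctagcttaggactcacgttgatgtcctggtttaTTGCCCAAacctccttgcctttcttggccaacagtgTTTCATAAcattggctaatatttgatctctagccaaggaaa
Ltf: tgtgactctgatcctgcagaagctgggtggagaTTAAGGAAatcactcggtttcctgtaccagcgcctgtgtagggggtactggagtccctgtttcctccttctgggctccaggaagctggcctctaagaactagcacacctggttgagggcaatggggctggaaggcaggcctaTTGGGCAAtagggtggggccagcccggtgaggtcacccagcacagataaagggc
S100a8: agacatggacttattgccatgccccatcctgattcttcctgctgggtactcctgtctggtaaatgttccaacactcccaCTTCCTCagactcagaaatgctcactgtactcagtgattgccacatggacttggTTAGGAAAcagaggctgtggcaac
S100a9: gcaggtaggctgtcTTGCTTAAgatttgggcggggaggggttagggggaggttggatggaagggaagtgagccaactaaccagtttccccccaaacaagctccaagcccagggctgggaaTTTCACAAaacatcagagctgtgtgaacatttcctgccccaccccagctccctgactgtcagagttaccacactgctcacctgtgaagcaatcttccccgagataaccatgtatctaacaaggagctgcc

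In the 250 bases before the RefSeq start, Elane, Mpo and Prtn3 each held the PU.1-type letters (1, 2 and 1 matches) and none held the C/EBP-type letters. Ngp, Ltf and S100a9 held the C/EBP-type letters (3, 2 and 2 matches) and not the PU.1-type letters, as did Retnlg with 1 match; 1 of the Ngp matches lies in the exon bases that were not printed. S100a8 and Lcn2 held 1 match of each, and Camp held neither. Of 32851 mouse promoter windows of the same length, 36.8% held the C/EBP-type letters and 10.6% the PU.1-type letters. Some of the genes are neighbours: Prtn3 and Elane lie 3.07 kb apart on chromosome 10, S100a8 and S100a9 22.6 kb apart on chromosome 3, and on chromosome 9 Camp lies 570 kb from Ngp and Ngp 596 kb from Ltf.

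The libraries held 13766 and 12251 barcodes (control and knockout, in that order throughout), of which 11516 and 10467 were kept, with medians of 12167.5 and 10109 UMIs. The labels call the cells tumour-infiltrating, and 82.0% and 55.4% of kept cells were epithelial/tumour-like; 46 barcodes occurred in both libraries. Porcn had 12 and 4 UMIs in monocyte/macrophage-like cells (4.10 and 1.19 CPM, UMIs per 1000000 UMIs of the class) and 7 and 3 in neutrophil-like cells (5.59 and 5.24 CPM). Reads at the 3′ end may lie outside the deleted exons, which the labels do not give, so these values do not check the labels. Csf1r, whose promoter drives the Cre, reached 19.98 and 34.9 CPM in neutrophil-like cells, against 214 and 260 CPM in monocyte/macrophage-like cells. With 1 pooled library per genotype there is no replicate, so no test between genotypes was possible and no p-value is given. Intervals are exact 95% intervals that cover counting error only and treat UMIs as independent; they say nothing about the spread between mice.

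Neutrophil-like cells, named from 11 markers that include none of the 10 genes, numbered 314 in control and 190 in knockout. That was 2.73% (2.44 to 3.04) and 1.82% (1.57 to 2.09) of kept cells. In both libraries each of the 10 genes had its highest level in this class, and for 7 of them the class held at least 94.7% of the gene's UMIs in each. Neutrophil-like cells held 98.4% and 98.3% of S100a8 UMIs, 98.8% and 98.7% of S100a9, 98.8% and 98.7% of Camp, 98.9% and 99.3% of Ngp, and 98.3% and 98.6% of Retnlg. For Ltf the shares were 95.8% and 94.7%, and for Elane 99.4% and 98.2%. Lcn2 (75.7% and 53.6%), Mpo (69.7% and 33.3%) and Prtn3 (80.0% and 38.7%) had the largest shares of their UMIs elsewhere. For Lcn2 these were 1431 and 883 UMIs, but for Mpo only 71 and 18 and for Prtn3 99 and 119.

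**Figure D1:**
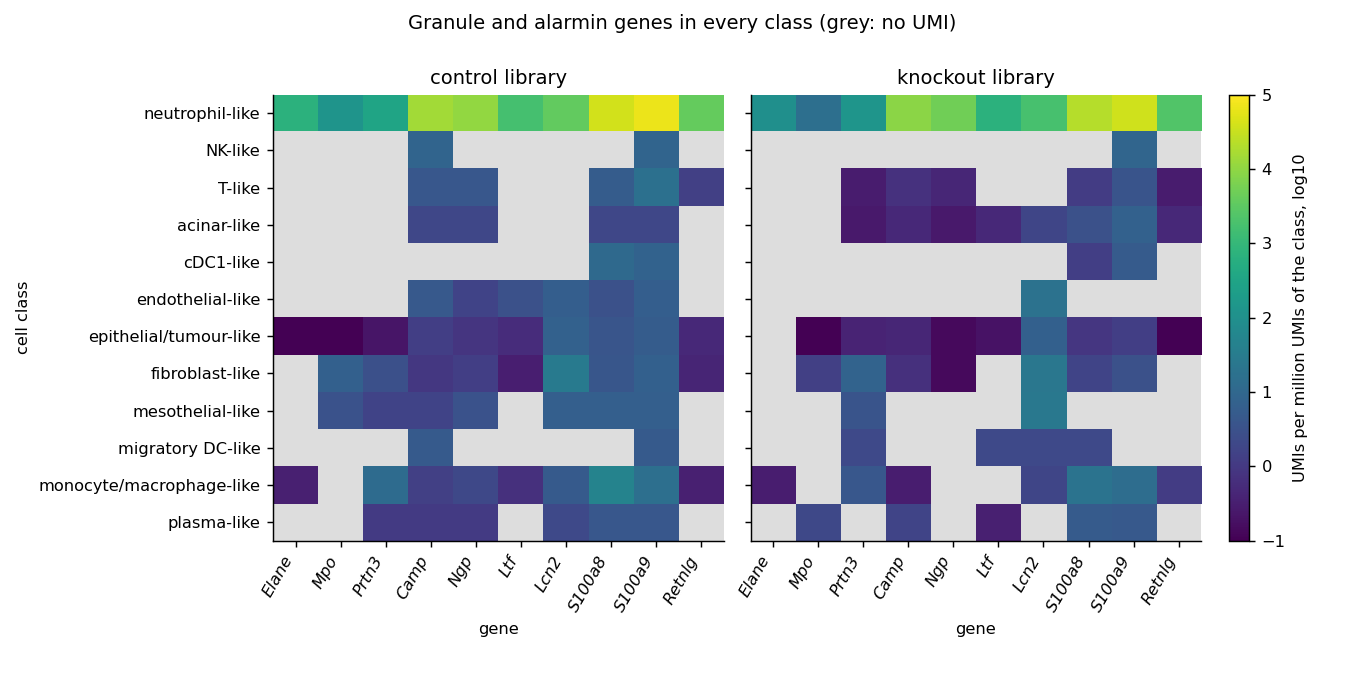
Level of each gene (columns) in each cell class (rows) in the control and the knockout library, as log10 of UMIs per 1000000 UMIs of the class, with grey for classes where the gene had no UMI. The neutrophil-like row is the brightest for all 10 genes in both libraries, and Lcn2 is also seen in fibroblast-like, mesothelial-like and endothelial-like cells.

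The neutrophil-like class was clustered again without the 10 genes and its 11 sub-clusters fell into 5 states. Immature sub-clusters had a higher sum of other promyelocyte and secondary granule genes than of mature neutrophil genes, a rule set after the data had been seen, so the split itself is partly one of granule transcription. Retnlg-high sub-clusters had a Retnlg level above the 3270 CPM of the whole class; the nearest sub-cluster inside had 4835 CPM and the nearest outside 1663 CPM. In order, there were 15 and 5 immature Retnlg-low cells (the sub-cluster with the cell cycle transcripts), 38 and 6 immature Retnlg-high cells, 85 and 27 mature Retnlg-high cells and 152 and 142 mature Retnlg-low cells. A further 24 and 10 mixed cells carried markers of tumour cells or basophils; they had medians of 16976.5 and 10487 UMIs and gave 36.7% and 21.9% of all UMIs of the class. Their epithelial markers summed to 4787 and 2556 CPM, against 5882 and 6106 CPM in the tumour class, and their part in the class-wide values was not tested beyond leaving them out.

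Immature cells made up 16.9% (12.9 to 21.5) of control and 5.79% (2.93 to 10.1) of knockout neutrophil-like cells, a ratio of 0.343 (0.162 to 0.664). Retnlg-high cells made up 39.2% (33.7 to 44.8) and 17.4% (12.3 to 23.5). Mature Retnlg-low cells went the other way, from 48.4% to 74.7%. Under a strict cell filter (at least 1000 genes, at most 10% mitochondrial UMIs) the Retnlg-high shares were 25% and 25.9%. Mature Retnlg-high cells as a state of their own were not found under 5 of 6 other ways of filtering, clustering or naming the cells, where no sub-cluster met that rule. Depth differed between the states more than between the libraries: median UMIs were 13881 and 16885 in immature Retnlg-low cells, 4386.5 and 4432.5 in immature Retnlg-high cells, 1577 and 1838 in mature Retnlg-high cells, and 1648.5 and 1820.5 in mature Retnlg-low cells. The few immature cells therefore gave 31.8% and 18.3% of the UMIs of the class.

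**Figure D2:**
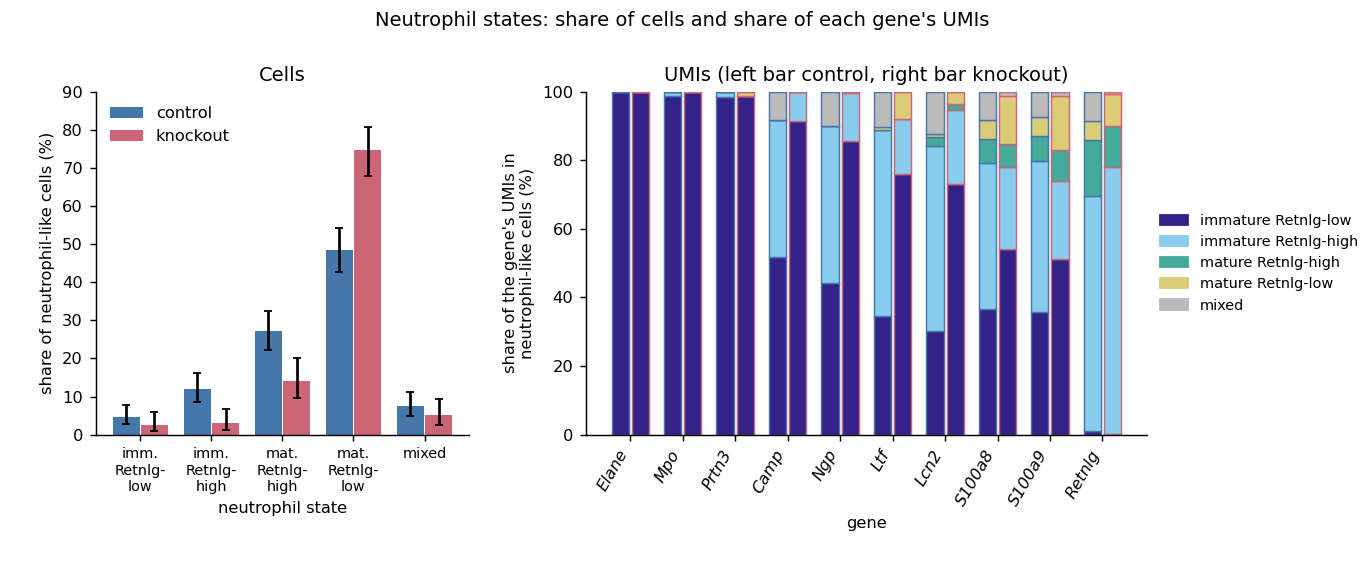
Left, share of neutrophil-like cells in each state with exact 95% binomial intervals (control blue, knockout red); right, the share of each gene's neutrophil-like UMIs that came from each state, with control as the left and knockout as the right bar of a pair. The immature states, 16.9% of the control class and 5.79% of the knockout class, hold most UMIs of all 10 genes in both libraries.

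Primary granule transcripts came from very few cells. Elane had 919 UMIs in control and 55 in knockout, all in the immature Retnlg-low sub-cluster, at 4509 and 698 CPM there. Those 919 UMIs lay in 6 of 15 control cells, and 1 cell held 67.4% of them; in knockout all 55 lay in 1 of 5 cells. Mpo had 161 of its 163 control UMIs and all 9 knockout UMIs in that sub-cluster (790 and 114 CPM), and Prtn3 391 of 397 and 74 of 75 (1918 and 939 CPM). In neutrophil-like cells as a whole, 11 control and 4 knockout cells held a UMI of any of the 3 genes, so their levels describe a handful of cells rather than a population.

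Within those cells the early and late genes were seen in different amounts. The 4 control cells with the most Elane (241, 103, 68.2 and 32.0 UMIs per 10000 UMIs of the cell) had no Retnlg UMI and at most 2.71 Ltf per 10000, while their Camp ran from 23.9 to 542 and their Ngp from 0 to 228. The other control cells with Elane (1.19 and 0.546 per 10000) had 57.2 and 55.7 Ltf and 409 and 364 Ngp per 10000. The knockout cell with Elane (30.3 per 10000) had 36.3 Prtn3, 4.95 Mpo, 425 Camp and 117 Ngp per 10000, and no Ltf or Retnlg UMI. No mature cell held an Elane or Mpo UMI in either library, and 1 mature knockout cell held a Prtn3 UMI. Against the level that 3 UMIs would give in mature control cells, Elane was at least 304-fold, Mpo at least 53.9-fold and Prtn3 at least 131-fold higher in immature cells.

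Secondary granule transcripts were a feature of both immature states and nearly absent from mature cells. Camp stood at 46318 and 61228 CPM in immature Retnlg-low cells and at 37813 and 17071 CPM in immature Retnlg-high cells. In mature cells it had 1 UMI in control and 3 in knockout. Camp is the precursor of the antimicrobial peptide CRAMP, and cells with at least 10 Camp UMIs numbered 47 of 314 in control and 9 of 190 in knockout, none of them mature. Ngp, a cystatin-like granule protein, had 29573 and 30608 CPM in immature Retnlg-low and 32005 and 14932 CPM in immature Retnlg-high cells. Its immature level was 758 times (466 to 1326) the mature level in control and 830 times (463 to 1664) in knockout.

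Relative to their immature levels, Ltf and Lcn2 reached further into mature cells than Camp and Ngp, though in control mature cells Ltf had 13 UMIs and Ngp 16. Ltf, which encodes the iron-binding lactoferrin, had 3601 and 3996 CPM in immature Retnlg-low and 5937 and 2559 CPM in immature Retnlg-high cells. It had no UMI in mature Retnlg-high cells of either library, yet 13 UMIs in 12 control and 33 UMIs in 23 knockout mature Retnlg-low cells (50.8 and 113 CPM). Lcn2, which binds bacterial siderophores, stood at 6599 and 9450 CPM in immature Retnlg-low and at 12489 and 8325 CPM in immature Retnlg-high cells. Its levels stepped down more gradually, with 832 and 395 CPM in mature Retnlg-high and 160 and 124 CPM in mature Retnlg-low cells, so the immature level was 23.9 and 56.0 times the mature one.

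**Figure D3:**
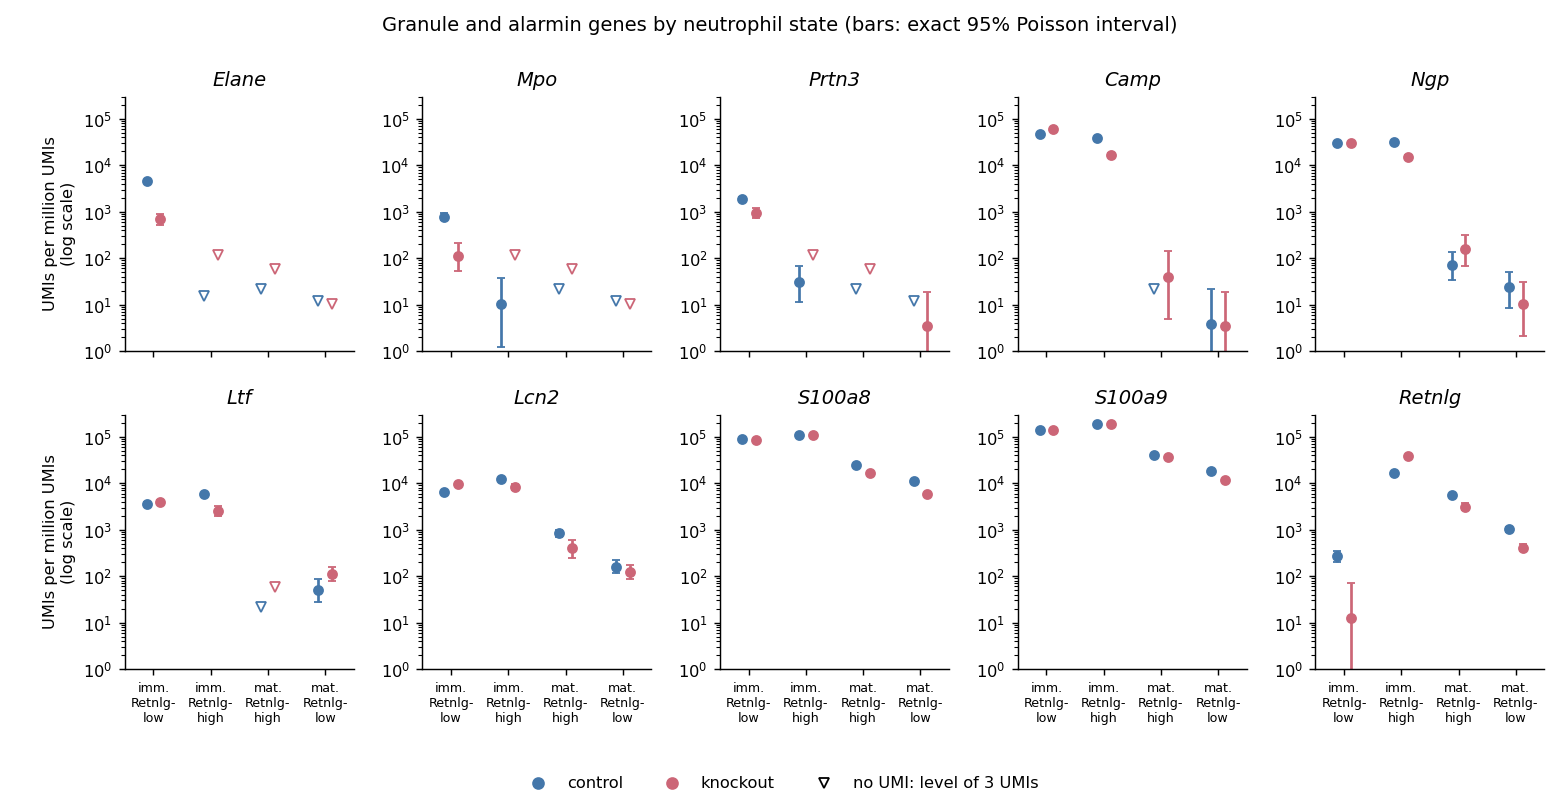
Level of each gene in CPM (log scale) in the 4 neutrophil states other than mixed, with exact 95% Poisson intervals (control blue, knockout red); open triangles stand at the level of 3 UMIs where a gene had none. Elane, Mpo and Prtn3 stand highest in immature Retnlg-low cells, Camp and Ngp drop from 14932 CPM or more in immature states to at most 158 CPM in mature ones, and S100a8 and S100a9 stand highest in immature Retnlg-high cells and remain at 5821 CPM or more in mature Retnlg-low cells.

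The alarmins S100a8 and S100a9 had the highest levels of the 10 genes in mature cells. S100a8 stood at 88916 and 83870 CPM in immature Retnlg-low, 108844 and 111132 CPM in immature Retnlg-high, 25139 and 16255 CPM in mature Retnlg-high and 11008 and 5821 CPM in mature Retnlg-low cells. S100a9 had the same order of states, highest in immature Retnlg-high cells, with 142514 and 137323, 185793 and 185297, 41412 and 36801, and 18402 and 11471 CPM. The step from immature to mature was 6.18-fold for each gene in control and 12.3-fold and 9.81-fold in knockout. For Retnlg it was 3.16-fold and 11.9-fold. Cells varied widely within a state: S100a8 ran from 0 to 1026 with a median of 147 per 10000 UMIs in control mature Retnlg-high cells, and from 0 to 793 with a median of 28.4 in control mature Retnlg-low cells. In immature control cells no cell fell below 141 per 10000.

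The Retnlg level, on which the Retnlg-high label itself was based, was 265 and 12.7 CPM in immature Retnlg-low, 16447 and 38954 CPM in immature Retnlg-high, 5453 and 3144 CPM in mature Retnlg-high and 1020 and 412 CPM in mature Retnlg-low cells. Single cells were less clear-cut than the sub-clusters. No Retnlg UMI was seen in 186 of 314 control (59.2%) and 123 of 190 knockout cells (64.7%), including 11 of 38 control cells of the immature Retnlg-high state. A cut of 10 Retnlg UMIs per 10000 put 92 and 38 cells above it, with 37 and 30 cells within 2-fold of that cut.

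**Figure D4:**
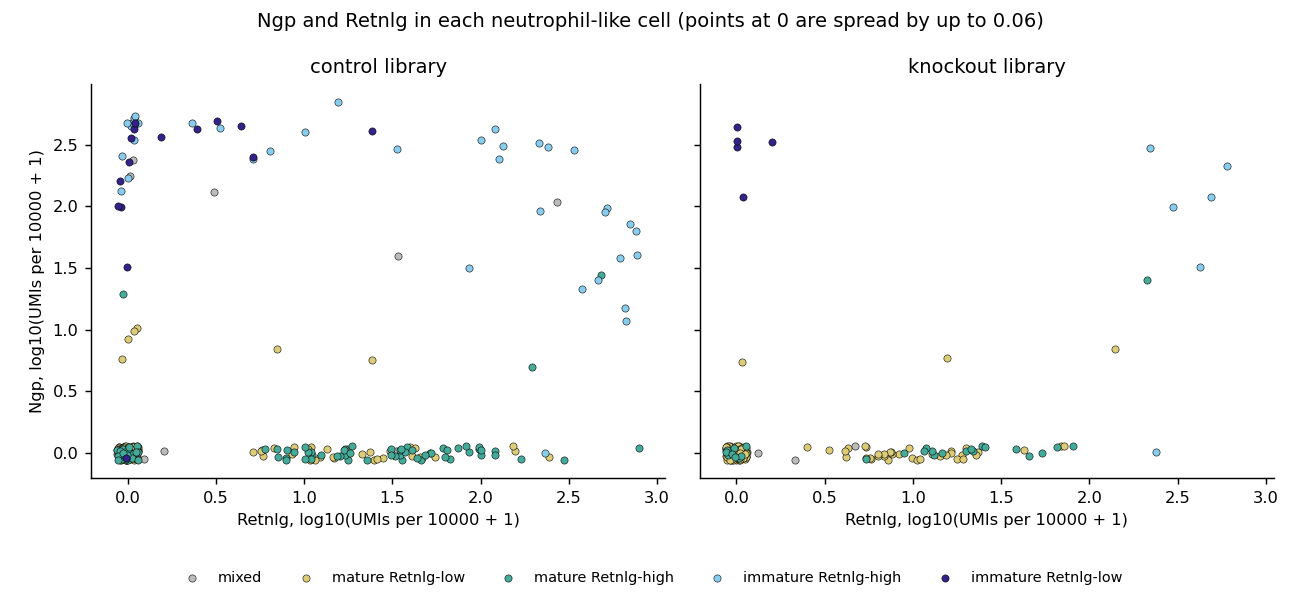
Ngp against Retnlg in each neutrophil-like cell, both as log10 of UMIs per 10000 plus 1, with the control library left and the knockout library right; colours are the states and points at 0 are spread by up to 0.06. Immature Retnlg-low cells lie at high Ngp with little Retnlg, immature Retnlg-high cells spread towards high Retnlg and lower Ngp, and mature cells lie along the bottom.

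Genes at least 2-fold higher in immature than in mature cells included all 10 members in control, where 18.1% of 4438 genes with at least 20 UMIs were higher by this measure. In knockout all 9 members with enough UMIs were, where 15.1% were, and no member was 2-fold lower in either library, where 32.7% and 35.8% of genes were. Among the lists of other genes in control, 5 of 5 tested promyelocyte genes, 10 of 11 secondary granule genes and 6 of 7 cell cycle genes were higher in immature cells. There 10 of 12 mature neutrophil genes and 12 of 13 tumour neutrophil genes were lower. Of the 6 genes on the tertiary granule list, Mmp8 was higher and Adam8 and Slc11a1 were lower. Mmp8 was placed on that list by choice, and its granule was not measured. The median log2 ratio was 3.55 for the secondary granule list and -0.36 over all genes. The promyelocyte and secondary granule lists and the mature list served in the rule for the states, so their counts are a description. The members were not in that rule, but granule genes like them were, so the counts of members are a description too.

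Splitting by Retnlg instead, mixed cells included with Retnlg-low ones, 6 of the 10 genes were at least 2-fold higher in Retnlg-high cells of control (S100a8, S100a9, Ngp, Ltf, Lcn2 and Retnlg itself) and 3 at least 2-fold lower (Elane, Mpo and Prtn3), where 10.8% of genes were higher and 37.3% lower. In knockout, of 9 genes tested, 3 were higher (S100a8, S100a9 and Retnlg) and 2 lower (Elane and Prtn3), where 19.4% and 25% of genes were. Retnlg is higher by the way the cells were split, here and in the counts below, so its call is not a result. Without it the higher genes in knockout were S100a8 and S100a9 alone, to be set against that 19.4%. Mixed cells gave a large part of the Retnlg-low UMIs, and without them S100a8 (1.62), S100a9 (1.71) and Ngp (1.42) were no longer 2-fold higher in control. That left Ltf, Lcn2 and Retnlg higher, where 8.7% of genes were, and the same 3 genes lower, where 19.2% were. In knockout without mixed cells S100a8, S100a9 and Retnlg were higher, where 18.3% of genes were, and Camp, Elane and Prtn3 lower, where 22% were. Elane had no UMI in Retnlg-high cells of either library. Outside the 10 genes, 440 genes were at least 2-fold higher in Retnlg-high cells of both libraries, mixed cells again counted with Retnlg-low ones. The 5 with the largest ratios were Mmp8, Bmx, Stfa1, Acpp and Ceacam10. Mmp8, which encodes collagenase 2, stood at 791 against 26.1 CPM over both libraries. On the lower side 884 genes met the rule, led by Dclk1, Il1a, Igfbp3 and Hist1h3c. Each had no UMI in Retnlg-high cells, with 179, 163, 160 and 147 UMIs in the others. Hist1h1b came next (3 against 560 UMIs). Mixed cells, which carried markers of tumour cells or basophils, are among those others. These UMIs can thus not be placed in Retnlg-low neutrophils, and no version of these lists without mixed cells is given. The histone genes Hist1h3c and Hist1h1b belong to dividing cells, and Il1a is a cytokine of the tumour neutrophil list.

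In neutrophil-like cells as a whole, all 10 genes had lower levels in the knockout library. Of the 10, 6 were at least 2-fold lower (Ngp, Ltf, Lcn2, Elane, Mpo and Prtn3), where 10.2% of 7842 genes were, and 0 were at least 2-fold higher, where 5.37% were. Their median log2 ratio of knockout over control was -1.07, against -0.15 over all genes tested. The primary granule genes had the lowest ratios: Elane went from 735 to 96.1 CPM, a ratio of 0.131 (0.0978 to 0.172), Mpo from 130 to 15.7 CPM, 0.121 (0.0542 to 0.235), and Prtn3 from 317 to 131 CPM, 0.413 (0.318 to 0.530). As 1 cell held 67.4% of the control Elane UMIs, these intervals do not cover the spread between cells. When cells were named one by one instead of by cluster, Elane and Mpo had no knockout UMI in the class and Prtn3 had a ratio of 0.0528; over the other alternatives Prtn3 reached 0.540.

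The secondary granule genes summed to 30725.5 CPM in control and 16638.9 CPM in knockout, a ratio of 0.542. Camp went from 14595 to 9217 CPM (0.632, 0.612 to 0.651) and Ngp from 10869 to 4917 CPM (0.452, 0.434 to 0.471). Ltf went from 1693 to 725 CPM (0.428, 0.385 to 0.476) and Lcn2 from 3569 to 1780 CPM (0.499, 0.465 to 0.534). As 1 knockout cell held 32.3% of the Camp UMIs of kept cells, these intervals too leave out the spread between cells. The alarmins were lower by similar factors, S100a8 from 39631 to 21320 CPM (0.538, 0.527 to 0.549) and S100a9 from 65059 to 36972 CPM (0.568, 0.560 to 0.577), and Retnlg from 3718 to 2290 CPM (0.616, 0.579 to 0.655). Without the mixed cells, which were 24 of 314 and 10 of 190, every ratio was lower still: 0.469 for S100a8, 0.490 for S100a9, 0.558 for Camp, 0.407 for Ngp, 0.461 for Lcn2, 0.106 for Elane and 0.541 for Retnlg, with 8 of the 10 at least 2-fold lower, where 7.09% of genes were. Under the strict cell filter 2 of the 10 were (Elane and Mpo), where 5.7% of genes were.

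**Figure D5:**
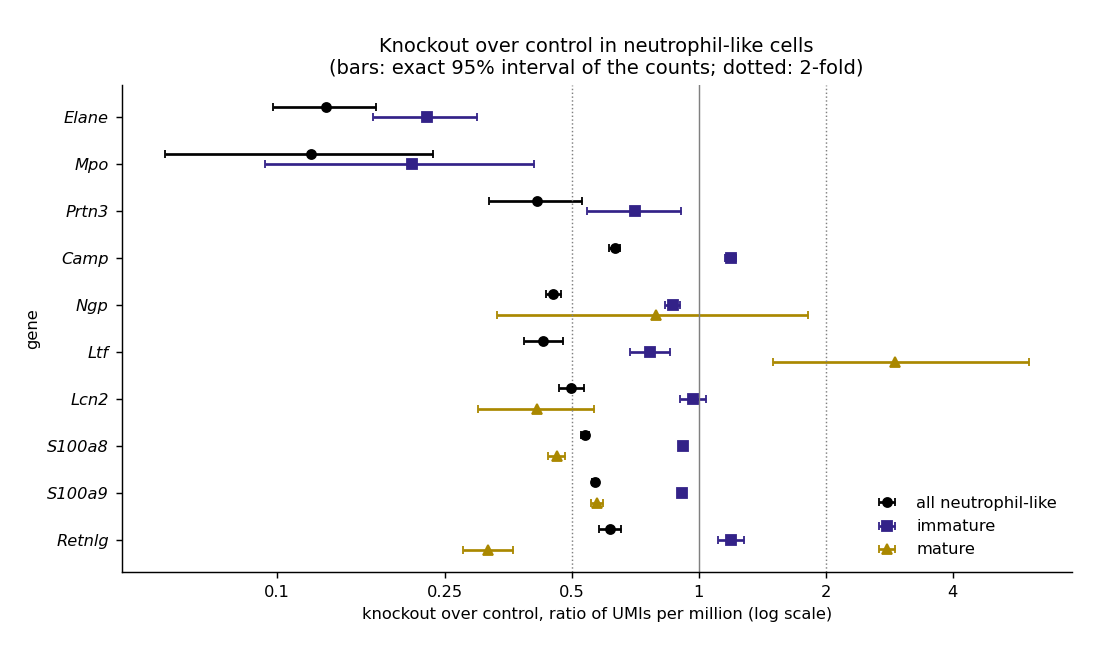
Ratio of knockout to control level for each gene on a log axis, for the whole neutrophil-like class, for immature and for mature cells, with exact 95% intervals of the counts; dotted lines mark 2-fold. In the whole class all 10 genes lie left of 1, while in immature cells S100a8, S100a9, Lcn2, Camp and Retnlg lie near 1 (0.913 to 1.19), and in mature cells Retnlg lies at 0.317.

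Within immature cells most of the same genes differed less between the libraries. Comparing 53 control and 11 knockout cells, S100a8 had a ratio of 0.919 (0.899 to 0.9402), S100a9 of 0.913 (0.897 to 0.929), Camp of 1.19 (1.15 to 1.23), Ngp of 0.868 (0.833 to 0.905), Ltf of 0.768 (0.686 to 0.857), Lcn2 of 0.969 (0.901 to 1.04) and Retnlg of 1.19 (1.11 to 1.28). In knockout the highest cell held 32.3% of the Camp, 29.3% of the Ngp and 32.0% of the Ltf UMIs of kept cells. The control shares were 6.49%, 6.50% and 6.74%. The intervals leave out this spread between cells. Only Elane (0.226) and Mpo (0.209) were at least 2-fold lower, 2 of 10 where 5.47% of genes were, and none was 2-fold higher, where 6.62% were. The make-up of the immature cells also differed, 38 of 53 control but 6 of 11 knockout cells being Retnlg-high. Among immature Retnlg-high cells Camp (0.451), Ngp (0.467) and Ltf (0.431) were lower and Retnlg was higher (2.37, 2.21 to 2.54) in knockout, while S100a8 (1.02) and S100a9 (0.997) were level. The knockout side of that comparison is 6 cells. Among immature Retnlg-low cells, 15 in control and 5 in knockout, Camp (1.32), Lcn2 (1.43), Ltf (1.11) and Ngp (1.03) were at or above the control level and Retnlg (0.0479, from 54 and 1 UMIs) was below it.

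Mature cells, which were 237 in control and 169 in knockout, did show lower levels. Of the 6 genes with enough UMIs there, S100a8, Lcn2 and Retnlg were at least 2-fold lower, where 8.9% of genes were, and Ltf at least 2-fold higher, where 5.8% were. S100a8 went from 15965 to 7365 CPM, a ratio of 0.461 (0.440 to 0.483), S100a9 from 26474 to 15218 CPM (0.575), Lcn2 from 396 to 164 CPM (0.414, 0.299 to 0.565) and Retnlg from 2575 to 816 CPM (0.317, 0.277 to 0.362). Part of the mature make-up also differed, as 85 of 237 control but 27 of 169 knockout cells were Retnlg-high. Inside mature Retnlg-high cells the ratios were 0.647 for S100a8, 0.889 for S100a9, 0.476 for Lcn2 and 0.577 for Retnlg, Lcn2 being the 1 gene at least 2-fold lower, where 5.75% of genes were. Inside mature Retnlg-low cells they were 0.529, 0.623, 0.771 (0.479 to 1.24) and 0.404, so that Retnlg was 2-fold lower, where 8% were, and Ltf (2.23) 2-fold higher, where 4.8% were. The cells of this state also fell into different sub-clusters. The sub-cluster with the highest S100a8 level of control (17923 CPM) held 49 of 152 control but 13 of 142 knockout cells. Another, of 13 and 27 cells, was higher in knockout, from 3107 to 6305 CPM of S100a8 and from 4142 to 10843 CPM of S100a9. In a further pair S100a9 was about level, at 15571 and 15112 CPM in 22 and 38 cells and at 9286 and 9392 CPM in 19 and 32 cells. S100a8 was lower in knockout in that pair, from 7992 to 6850 and from 8752 to 4921 CPM. In the remaining sub-clusters of this state S100a8 was also lower, from 17923 to 11367, from 5635 to 3358 and from 15853 to 3693.5 CPM. S100a9 fell there too, from 33002 to 26326, from 7636 to 4554 and from 23079 to 6804 CPM. Among mature Retnlg-low cells the median cell had 28.4 and 22.6 S100a8 and 62.4 and 48.4 S100a9 per 10000 UMIs, a smaller gap than that of the sums.

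Shares of cells with a transcript were compared after thinning each cell to 1000 UMIs, which left out 14 control and 2 knockout cells. S100a8 was then seen in 79.7% and 69.7% of neutrophil-like cells (82.8% and 74.7% unthinned), against 0 of 183 and 0.314% of 1591 T-like cells (2.08% and 0.492% unthinned), where 0 of 183 allows up to 1.64%. Median depths before thinning were 1767.5 and 1883 UMIs in neutrophil-like and 2840.5 and 3367 in T-like cells. Camp was seen in 17.3% and 5.85%, Ngp in 20.3% and 6.38%, Lcn2 in 29.0% and 12.8%, Ltf in 16% and 12.8% and Retnlg in 35.3% and 26.6%. Unthinned, Camp was seen in 17.8% and 6.84%, Ngp in 20.7% and 7.37%, Lcn2 in 32.5% and 15.3%, Ltf in 19.1% and 16.3% and Retnlg in 40.8% and 35.3%.

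Outside the neutrophil-like class Lcn2 had the highest level of the 10 genes, at 8.54 and 6.86 CPM. Lcn2 is also an acute-phase product of epithelia and fibroblasts. In epithelial/tumour-like cells as a whole its level was 7.42 CPM (1116 UMIs) and 6.92 CPM (687 UMIs), a ratio of 0.932 (0.846 to 1.03). That near-equality rested on 1 small cluster led by Tff2, Pkhd1, Ttr and Epcam, singled out after its values were seen. Its 41 and 51 cells had 427 and 446 CPM of Lcn2 and gave 26.6% and 93.2% of the Lcn2 UMIs of the class. In the other 9406 and 5743 tumour-like cells Lcn2 stood at 5.47 CPM (819 UMIs) in control and 0.480 CPM (47 UMIs) in knockout, a ratio of 0.0878 (0.0640 to 0.118). Most of the control UMIs there, 474, lay in the cluster led by Lgals4, Muc5ac, Rbp2 and Spink4, a gene set of intestinal and gastric mucous cells, at 25.2 CPM in 964 cells, against 2.06 CPM (11 UMIs in 266 cells) in knockout; the same control cluster held 61 Ltf UMIs.

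Fibroblast-like cells had 30.5 and 23.8 CPM of Lcn2, in 76 of 627 and 59 of 733 cells. In their largest cluster, led by Mfap5, Dpt, Col14a1 and Svep1, the level was 24.2 and 24.0 CPM, and in a control cluster of 23 cells led by Cxcl13 and Saa3 it was 125 CPM. Relative to S100a9 UMIs, Lcn2 stood at 1.36 in control tumour-like and 4.31 in control fibroblast-like cells, but at 0.0549 in control neutrophil-like cells. For S100a8, Camp and Ngp the ratios to S100a9 in control tumour-like cells lay nearer to those in neutrophil-like cells: 0.715 against 0.609 for S100a8, 0.2402 against 0.224 for Camp and 0.151 against 0.167 for Ngp. For Ltf the ratio was 0.106 against 0.0260, and 61 of its 87 UMIs there lay in the Lgals4 cluster. No expression by tumour-like cells is read from the low levels of S100a8, Camp and Ngp (3.90, 1.31 and 0.825 CPM); free RNA was not measured.

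Several of these low levels outside neutrophil-like cells were also lower in knockout. In epithelial/tumour-like cells 6 of 8 members with enough UMIs were at least 2-fold lower, where 2.71% of genes were, with ratios of 0.225 for S100a8, 0.244 for S100a9, 0.346 for Camp, 0.171 for Ngp, 0.182 for Retnlg and 0.331 for Ltf; Lcn2 and Prtn3 were not, and none was 2-fold higher, where 4.84% were. In fibroblast-like cells 3 of 5 were lower (S100a8, S100a9 and Mpo), where 6.42% were, and Prtn3 was higher, where 8.25% were. In monocyte/macrophage-like cells 3 of 4 were lower (S100a8, Lcn2 and Prtn3), where 5.92% were, and none was higher, where 2.67% were. Neutrophil-like cells themselves were 2.73% and 1.82% of kept cells and had lower levels per cell in knockout. Whether this bears on the levels in the other classes was not tested.

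The primary granule genes Mpo and Prtn3 had a few UMIs in stroma. Mpo had 65 UMIs in 48 of 627 control fibroblast-like cells (6.85 CPM) and 10 UMIs in 9 of 733 knockout cells (1.39 CPM), with no Elane UMI in either. In the large Mfap5 cluster, which holds 404 and 716 cells, Mpo was 2.03 and 1.42 CPM, and the rest of the control UMIs lay in small clusters seen mostly in control. Prtn3 had 27 and 57 UMIs in fibroblast-like cells (2.85 and 7.92 CPM), and in the Mfap5 cluster 3.66 and 8.10 CPM. In monocyte/macrophage-like cells Prtn3 had 37 and 14 UMIs, of which the top 3 cells held 62.2% and 57.1%. S100a8 in those cells had 143 and 66 UMIs, with S100a8 to S100a9 ratios of 3.11 and 1.38 against 0.609 and 0.577 in neutrophil-like cells; the top 3 cells held 42.7% and 50% of the S100a8 UMIs, and 1 knockout cell held 87.5% of the S100a9 UMIs.

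Other genes of the same programmes were read from lists in the whole neutrophil-like class. Over all genes tested there, 10.2% were at least 2-fold lower and 5.37% at least 2-fold higher in knockout. Of 7 tested promyelocyte genes 3 (Ctsg, Ms4a3 and Gfi1) were at least 2-fold lower and 0 higher in knockout, with a median log2 ratio of -0.79; genes behind small counts are named here after their values were seen. Ctsg, the serine protease cathepsin G, went from 80.7 to 12.2 CPM (0.151), Ms4a3 had a ratio of 0.354, Serpinb1a, an inhibitor of the granule proteases, of 0.573 and Fcnb of 0.867. Of 11 other secondary granule genes 3 were lower (Cd177 at 0.442, Ifitm6 at 0.436 and Abca13 at 0.347) and 1 higher (Olfm4 at 2.19), with a median of -0.83. Among the most abundant were Chil3 at 0.501, Pglyrp1 at 0.537, Wfdc21 at 0.562 and Hp, haptoglobin, at 0.721. None of the 6 genes on the tertiary granule list passed 2-fold either way (median -0.13), among them Mmp8 (0.937), Mmp9 (0.889), Itgam (0.981) and Adam8 (0.827). The lists thus had lower values for early granule genes and values near 1 for the genes placed on the tertiary granule list.

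Genes of the tumour neutrophil list were mostly higher in knockout, and those of the mature neutrophil list were divided. The shares over all genes of the class were again 5.37% at least 2-fold higher and 10.2% at least 2-fold lower. Of 12 mature neutrophil genes 1 was at least 2-fold higher (Ccl6, 2.36) and 2 were lower (the protease inhibitor gene Slpi, 0.355, and the formyl peptide receptor gene Fpr1, 0.332), with a median of 0.44. The most abundant were Il1b at 1.94, Mxd1 at 1.66, Msrb1 at 1.30 and Il1r2 at 0.984. Of 13 tumour neutrophil genes 7 were higher (Ccl4, Cd274, Ccl3, Il1a, Hmox1, Cstb and Tnfrsf23) and 0 lower (median 1.04). The chemokine genes Ccl4 and Ccl3 went from 1248 to 6508 CPM (5.22) and from 872 to 3275 CPM (3.76), Cd274, which encodes PD-L1, from 379 to 1668 CPM (4.403), and Spp1 had a ratio of 0.957. Within mature cells 4 of 13 tumour neutrophil genes were higher and 0 lower (median 0.92). Of 12 mature neutrophil genes 0 were higher and 2 lower there (median -0.30), where 5.8% of all genes were higher and 8.9% lower. Within mature Retnlg-high cells 0 of 7 tumour neutrophil genes were higher and 2 lower (median -0.42), where 5.75% of all genes were higher and 5.75% lower. No gene of the S100 family list passed 2-fold (0 of 6, median -0.45), with S100a6 at 0.707, S100a10 at 0.705, S100a11 at 0.890 and S100a4 at 0.952. Of 7 cell cycle genes none passed 2-fold (median -0.38), Mki67 having a ratio of 0.637 (0.454 to 0.881).

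Receptors and relatives of the members were scarce. Tlr4, a receptor for calprotectin, had 117 and 157 CPM in neutrophil-like cells, a ratio of 1.35 (1.02 to 1.76). Within states it was on the other side of 1, at 0.775 (0.576 to 1.04) in mature cells, 0.685 in mature Retnlg-low and 0.288 (19 and 2 UMIs) in mature Retnlg-high cells. Ager, another calprotectin receptor, had 5 and 1 UMIs, and Cd36 and the lipocalin 2 receptor gene Slc22a17 had none. Of the resistin family, Retn had 8 and 2 UMIs, Retnlb 3 and 0 and Retnla 1 and 0. Of 6 acute-phase and Lcn2-associated genes 1 was at least 2-fold lower (Lrg1, 0.387), where 10.2% of genes were, and none higher (median 0.00), where 5.37% were. The regulators Nfkbiz and Cebpb stood at 1.61 and 1.65 while Lcn2 itself was at 0.499, and Cebpd at 0.931.

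Across 27 points, each a class in a library with at least 20 cells, the genes whose levels were most like those of S100a8 were Trem3 (Pearson r = 0.995), Wfdc21 (0.993), Cebpe (0.991), S100a9 (0.989) and Mirt2 (0.988). For Ngp they were Retnlg (0.999), Fcnb (0.998), Ltf (0.997), Cxcr2 (0.997) and Camp (0.996). For Retnlg they were Fcnb, Ngp and Cxcr2 (each 0.999), Ltf (0.997) and Camp (0.996). For Lcn2 the highest values were lower, at 0.961 for Mmp9, 0.955 for Ltf and Ngp and 0.954 for Retnlg and Fcnb. These values are a description on log2(CPM + 10), across points that share libraries, depth and free RNA. A gene nearly confined to neutrophil-like cells can reach a value near 1 from those points alone. The values therefore do not show that genes vary together within neutrophil-like cells. In control, the immature level over the mature level was 0.217 for Cxcr2, against 3.16 for Retnlg and 758 for Ngp.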

How the data were processed

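Each library's deposited matrix holds raw UMI counts per gene and barcode, filtered to cells by the submitters. The authors made these counts with Cell Ranger, version 3.1.3 per the submitters' processing notes and 8.0.0 per the file headers, on mm10 per those notes; the counting settings are not given in the sources used here. The 2 libraries held 173934025 and 137527647 UMIs. Barcodes below 500 genes or above 15% mitochondrial UMIs were dropped, and Scrublet (expected rate 0.08) removed 148 and 341 as doublets (1.27% and 3.16%). Cells were scaled to 10000 UMIs and clustered in scanpy 1.11.5 on 2000 variable genes without the 10 members, with 30 components, 15 neighbours and Leiden resolution 1 (igraph 0.11.9). Clusters were named from marker lists, none of which holds a member, with at least 3 markers detected. The class names are rebuilt here and are not the authors'.

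UMIs were summed per class and library and given per 1000000 UMIs of that class (CPM), with exact 95% Poisson intervals, exact conditional intervals for ratios and Clopper-Pearson intervals for shares (scipy 1.17.1). They cover counting error only. A gene was called at 2-fold on log2 ratios with 1 UMI added to each side, among genes with at least 20 UMIs, and a level of 0 was bounded by 3 UMIs. As each group is 1 pooled library, no test was run. Splitting by Retnlg was planned; the immature, mature and mixed states were defined after seeing the data. Mixed cells had at least 25% of another class's marker level or at least 3 basophil markers. The calling step was run on simulated counts with planted changes larger than 2-fold. Those counts were drawn independently, so the run does not cover genes whose UMIs lie mostly in 1 cell. Nor does it cover changes close to 2-fold.

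The members, gene lists and markers were chosen with earlier results of these data known. By plan, named genes were the members, at most the 4 most abundant genes of each list and the 5 genes most like S100a8, Lcn2, Retnlg and Ngp. The plan also took the 5 with the largest Retnlg-high to Retnlg-low ratios each way, with at least 50 UMIs and the same direction in both libraries. Beyond the plan, further list genes that passed 2-fold were named after their values were seen. Alternatives varied the cell filter, doublet removal, clustering, naming, Retnlg split and summary.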

Additional observations from a re-analysis of the deposited data

Results flagged for a closer look

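Ltf and Retnlg moved in opposite directions in immature and mature neutrophil-like cells. Ltf had a knockout to control ratio of 0.768 (0.686 to 0.857) in immature and 2.93 (1.50 to 6.06) in mature cells, where it had 13 and 33 UMIs. Retnlg had a ratio of 1.19 (1.11 to 1.28) in immature and 0.317 (0.277 to 0.362) in mature cells. With 1 library per genotype, these differences between states were not tested.

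Prtn3 was lower in knockout neutrophil-like cells (0.413) but had ratios of 1.79 in epithelial/tumour-like cells (33 and 39 UMIs) and 2.78 in fibroblast-like cells (27 and 57 UMIs). The difference between the classes was not tested.

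Barcodes left out as doublets, 148 in control and 341 in knockout, held more Camp, Ngp and Ltf in knockout. The ratios were 23.0 for Camp (4 and 221 UMIs), 12.1 for Ngp (4 and 116 UMIs) and 5.40 for Ltf (3 and 39 UMIs), against 0.879 for Lcn2 (70 and 148 UMIs). In knockout 1 barcode held 98.6% of those Camp UMIs, and the highest barcode held 97.4% of the Ngp and 84.6% of the Ltf UMIs.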

How the results depend on the processing

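All values are ratios of knockout to control unless said otherwise. Class-wide alarmin, secondary granule and Retnlg levels and the immature share were lower in knockout under every alternative run, with ranges of 0.467 to 0.697, 0.307 to 0.716, 0.447 to 0.848 and 0.334 to 0.716. Averaging over cells gave 0.467, 0.307 and 0.447 for the first 3, and leaving out the mixed cells (chosen after seeing the data) 0.482, 0.485 and 0.541. The strict cell filter moved most values: neutrophil-like share 0.525, alarmins 0.697, secondary granule 0.716, Retnlg 0.848, 2 members past 2-fold in place of 6, immature share 0.716, and a Retnlg-high share of 1.04 (25% and 25.9% of cells), which reversed. Under it immature cells had 0.956 for alarmins, 1.22 for secondary granule genes and 0.0479 for Retnlg, reversed, and mature cells 0.709 for alarmins and 0.503 for Retnlg; Ngp (1.03) and Ltf (1.11) in immature and Ltf (0.489) in mature cells also reversed. The immature cells left there were the 15 and 5 Retnlg-low ones; of the 38 and 6 Retnlg-high ones, 15 and 5 were put with mature Retnlg-high cells, 16 and 0 with mixed cells, and 7 and 1 were not in the class. The cells compared therefore differ, and these values are not a change in the same cells. With no doublet removal the values were 0.270 for the Retnlg-high share, 0.506 for alarmins, 0.490 for secondary granule genes, 0.536 for Retnlg and 1.09 for Lcn2 in tumour-like cells; in immature cells 0.820 for alarmins and, both reversed, 0.893 for secondary granule genes and 0.988 for Retnlg, and 0.386 for Retnlg in mature cells. The loose filter gave 0.896 (alarmins, immature), 1.01 (Retnlg, immature) and 0.374 (Retnlg, mature). Leiden resolution 0.5 gave 0.281 for the Retnlg-high share, 0.583 for alarmins, 0.574 for secondary granule genes and 0.372 for Retnlg in mature cells, and clustering with the members 0.568 for alarmins. Naming each cell from its own markers gave 0.282 for the Retnlg-high share, 0.595, 0.574 and 0.659 for alarmins, secondary granule genes and Retnlg, 0.999 and 1.11 for alarmins and secondary granule genes in immature cells, 0.585 and 0.456 for alarmins and Retnlg in mature cells, and 1.003 for S100a8 in immature cells, reversed. A cut of 10 Retnlg UMIs per 10000 gave a Retnlg-high share of 0.683 and 1 member higher in Retnlg-high cells of both libraries, and sub-cluster resolution 0.5 gave 0.275 and 6 members, against 0.443 and 3. These counts include Retnlg itself, on which the cells were split; without it they were 0, 5 and 2 members, where 5.27%, 3.92% and 9.80% of genes were higher, and 0 without mixed cells, where 5.95% were. Without the cluster led by Tff2, chosen after seeing the data, Lcn2 in tumour-like cells was 0.0878. Over all alternatives, 60 values of the main results stayed, 44 moved and 4 reversed. Of the single-gene values 88 stayed, 55 moved and 4 reversed. A value stayed if it lay within the main interval or, for a count of members, close to the main count. No paired analysis was possible because each group is 1 pooled library. Primary granule ratios ran from 0 to 0.171 for Elane, 0 to 0.158 for Mpo and 0.0528 to 0.540 for Prtn3 in the class, and for Prtn3 in immature cells from 0.0944 to 0.705. Depth limits primary granule genes most, since 15 and 5 cells held nearly all their UMIs.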

Other observations

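Barcodes that failed the cell filter, 2102 in control and 1443 in knockout, held little of the alarmin signal: 369 and 64 S100a8 UMIs, which were 0.719% and 0.485% of that gene's UMIs in the library, and 606 and 139 S100a9 UMIs. Mature neutrophil-like cells of the control library had 3313 CPM of Ccl4 and 2326 CPM of Ccl3, chemokine genes, and 1053 CPM of Cd274, while immature cells had 2.52, 5.03 and 2.52 CPM. Slpi, an inhibitor of neutrophil elastase, stood at 1659 CPM in mature and 531 CPM in immature control cells, and went from 749 to 265 CPM in the whole class (0.355, 0.297 to 0.421). Tlr4 was also a transcript of mature cells, at 302 CPM against 25.2 CPM in immature control cells.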
